A study of Homo sapiens with 4 samples.

Results

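Histone and DNA modifying enzymes were read on arrays of Jeko-1 and Raji, 2 human B-cell lymphoma lines, and of a rituximab-resistant subline of either line. They comprise 49 listed genes in 8 classes: Polycomb complexes, histone deacetylases, histone acetyltransferases, methyltransferases of the H3K4, H3K36 and H3K79 marks, H3K9 methyltransferases, histone demethylases, DNA methylation enzymes and SWI/SNF remodellers. A gene was taken where the array annotation gave a probe set its symbol alone, and 47 of the 49 had such a probe set, out of 19775 genes in all. BMI1 and RNF2 had none and were not analysed here. The 4 groups were Jeko-1/R, a rituximab-resistant subline of the mantle cell lymphoma line Jeko-1; Jeko-1 itself, without rituximab; Raji/R, a rituximab-resistant subline of the Burkitt lymphoma line Raji; and Raji itself, without rituximab. Rituximab is an antibody against the B-cell surface protein CD20. The resistant cells are described as treated with the antibody, and dose, duration and whether a subline is 1 clone are not given in the sources used here. There was 1 array per group, so no comparison within a line has a replicate, and no p-value is given for one.

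These enzymes set the marks that decide how tightly DNA is packed and which genes can be read. Polycomb repressive complexes write the H3K27 methyl and H2A ubiquitin marks of silenced genes, deacetylases remove and acetyltransferases add histone acetyl groups, KMT2 family enzymes methylate H3K4 at promoters and enhancers, and DNMT and TET enzymes write and oxidise DNA methylation. In B-cell lymphoma, mutations of EZH2, KMT2D, CREBBP, EP300, TET2 and ARID1A are well known, but the arrays read transcript level and give nothing about mutations, protein or the marks themselves.

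Transcript level was read as the MAS5 signal, a brightness without units that is scaled to a common mean on each array. Signals under a floor of 77.5, the median of all values, were raised to it before ratios were taken, and a ratio with 1 side under the floor is a lower bound. Each gene was represented by its brightest probe set over the 4 arrays, and signals are compared between arrays for 1 probe set, never between genes. As a stand-in for error, probe sets of the same gene differed in their log2 ratio by an SD of 0.27 between Jeko-1/R and Jeko-1 (5850 genes with several probe sets) and of 0.56 between Raji/R and Raji (6850 genes). The Raji/R array stood apart: 55.6% of its probe sets reached the floor, against 48.0% to 48.3% on the other arrays, and the median log2 ratio of Raji/R over Raji was 0.73 for all probe sets with a signal near 108 but -0.08 for those near 2002. Not all markers of the lines' types followed the labels. All 7 B-cell markers with a value reached the floor on every array, CCND1 had signals of 14973 in Jeko-1/R and 15834 in Jeko-1 and was under the floor in both Raji lines, and SOX11 had 8159 in Jeko-1/R and 9180.5 in Jeko-1 and was under it there too, while CD5 was under it in both Jeko-1 lines. Of 5 germinal-centre and Burkitt markers, all at or above the floor on every array, BCL6 and CD38 were called higher in the Raji lines (log2 difference -5.14 and -3.41) and MYC and TCL1A higher in the Jeko-1 lines (1.81 and 2.40), with MYC at 20460.4 in Jeko-1/R and 24145 in Jeko-1, against 6028 in Raji/R and 6681 in Raji. MME was not called. Between 2 and 3 of 8 T-cell markers reached the floor in the Raji lines and 1 to 2 in the Jeko-1 lines, with summed signals of 428 on Jeko-1 to 653 on Jeko-1/R, and CD3E was under the floor on all 4 arrays. Of 8 myeloid markers 4 did so in Raji/R and 3 in Raji, with summed signals of 1209 in Raji/R and 708 in Raji, and CD14 was under it on all 4. Of 6 NK-cell markers 3 did so in each Raji line and 1 in each Jeko-1 line, with sums of 2058 in Raji/R and 1317 in Raji, mostly NKG7 (1749 in Raji/R and 883 in Raji), and 312 in Jeko-1/R and 298 in Jeko-1. Of 9 stromal and epithelial markers 7 did so in each Raji line and 6 in each Jeko-1 line, with COL1A1 at 1465 in Raji/R and 1916 in Raji. The part of such signals in the results was not tested. In bulk RNA, fewer cells of a type and less RNA per cell cannot be told apart.

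The differences between the lines were wide for these enzymes, and those between a subline and its parent were narrow in Jeko-1 and wider in Raji. In limma's fit over 15575 genes, with cell line and resistance as terms, 27 of the 47 enzymes differed between the Jeko-1 lines and the Raji lines at an adjusted p under 0.05, 14 higher in Jeko-1 and 13 higher in Raji. Over all genes tested 53.4% were called (23.3% higher in the Jeko-1 lines and 30.1% higher in the Raji lines), so the members' 57.4% is near the background and says nothing particular about them. Both arrays of a line come from a parent and its own subline. These p-values therefore rest on how far the subline-to-parent differences of the 2 lines disagree, moderated over all genes. That spread may be technical and is not spread between independent cultures. In Jeko-1/R against Jeko-1, 0 of 47 members were 2-fold apart, where 0.975% of all measured genes were (0.38% higher and 0.595% lower). In Raji/R against Raji, 4 of 47 (8.51%) were, where 9.64% of all measured genes were: HDAC5 was higher (7.01% of genes were higher), and EZH2, HDAC9 and SETD1A were lower (2.64% of genes were lower). After quantile normalization of the arrays, 853 genes were 2-fold higher and 739 lower in Raji/R, against 1026 and 386 before it, and a lowess curve on mean signal gave 351 and 801; both also gave 1 member higher and 3 lower, with TET2 in the place of EZH2. The median log2 ratio of the members was 0.04 in Jeko-1/R, beside 0.001 over all genes, and was -0.16 in Raji/R, beside 0.08. With a floor at the 75th percentile, which leaves out dim genes, the Raji/R medians were -0.13 for the members and -0.03 over all genes.

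The starts of the genes on which these results turn are shown as the 250 bases upstream of the most 5′ transcription start in RefSeq (build GRCh38.p14), first for the members that were 2-fold lower in Raji/R and then for DNMT3A, SUZ12 and TET2, which with HDAC9 had the 4 largest differences between lines. Capitals mark matches, on either strand, to a GC-box (GGGCGG), an E-box (CACGTG) or an E2F-type motif (TTTCCCGC or TTTGGCGC).
EZH2, chr7:148884292-148884541, minus strand: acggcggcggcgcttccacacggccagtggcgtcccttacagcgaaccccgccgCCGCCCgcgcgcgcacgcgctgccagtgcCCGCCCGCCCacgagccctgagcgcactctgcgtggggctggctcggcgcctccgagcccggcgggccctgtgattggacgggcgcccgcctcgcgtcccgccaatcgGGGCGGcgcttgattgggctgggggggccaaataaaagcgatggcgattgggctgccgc
HDAC9, chr7:18086575-18086824, plus strand: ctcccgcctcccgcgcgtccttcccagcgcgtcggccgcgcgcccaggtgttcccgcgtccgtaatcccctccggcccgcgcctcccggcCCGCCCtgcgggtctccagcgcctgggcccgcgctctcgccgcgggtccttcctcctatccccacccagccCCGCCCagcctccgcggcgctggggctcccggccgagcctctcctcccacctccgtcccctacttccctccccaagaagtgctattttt
SETD1A, chr16:30957504-30957753, plus strand: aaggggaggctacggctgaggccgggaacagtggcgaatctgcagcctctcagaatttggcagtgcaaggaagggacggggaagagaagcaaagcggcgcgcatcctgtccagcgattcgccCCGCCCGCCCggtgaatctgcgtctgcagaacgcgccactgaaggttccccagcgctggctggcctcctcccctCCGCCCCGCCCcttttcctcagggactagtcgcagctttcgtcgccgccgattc
DNMT3A, chr2:25342591-25342840, minus strand: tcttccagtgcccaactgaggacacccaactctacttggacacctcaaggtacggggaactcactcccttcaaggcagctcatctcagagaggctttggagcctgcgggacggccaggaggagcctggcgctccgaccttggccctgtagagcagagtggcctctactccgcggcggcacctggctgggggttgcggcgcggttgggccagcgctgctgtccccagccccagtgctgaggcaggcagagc
SUZ12, chr17:31936757-31937006, plus strand: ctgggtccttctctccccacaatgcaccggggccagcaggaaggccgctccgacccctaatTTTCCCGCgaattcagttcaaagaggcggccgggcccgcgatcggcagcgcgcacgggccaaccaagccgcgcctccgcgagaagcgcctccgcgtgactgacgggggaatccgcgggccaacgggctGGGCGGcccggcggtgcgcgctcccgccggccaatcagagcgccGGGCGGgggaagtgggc
TET2, chr4:105145625-105145874, plus strand: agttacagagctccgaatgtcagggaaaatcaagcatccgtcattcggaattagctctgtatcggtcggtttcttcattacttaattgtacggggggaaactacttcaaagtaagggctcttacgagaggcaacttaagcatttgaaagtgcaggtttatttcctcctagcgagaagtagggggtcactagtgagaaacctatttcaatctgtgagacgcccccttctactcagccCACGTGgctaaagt
HDAC5, the member that was higher in Raji/R, is named only. The upstream bases of EZH2, HDAC9 and SETD1A held 38, 32 and 23 CpG dinucleotides and 4, 2 and 4 GC-boxes, and those of SUZ12 held 34 CpG, 2 GC-boxes and the single E2F-type match, where 1.93% of 35116 listed promoters hold one. DNMT3A and TET2 held 12 and 10 CpG and no GC-box at these starts, and TET2 held 1 E-box. GC-boxes occur in 42.6% of all listed promoters and E-boxes in 6.34%. Of the 45 analysed members with a listed promoter, 31 held a GC-box, 7 an E-box and 1 an E2F-type motif, and their median was 24 CpG, beside 11 over all listed promoters. These sets are unlike: members were read at their most upstream start only, while the listed promoters count every listed start of a gene. DNMT3A is listed with 6 starts, HDAC9 with 5 and EZH2 and TET2 with 2 each, and which start the cells used was not measured. A match describes letters and not a binding site.

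**Figure D1:**
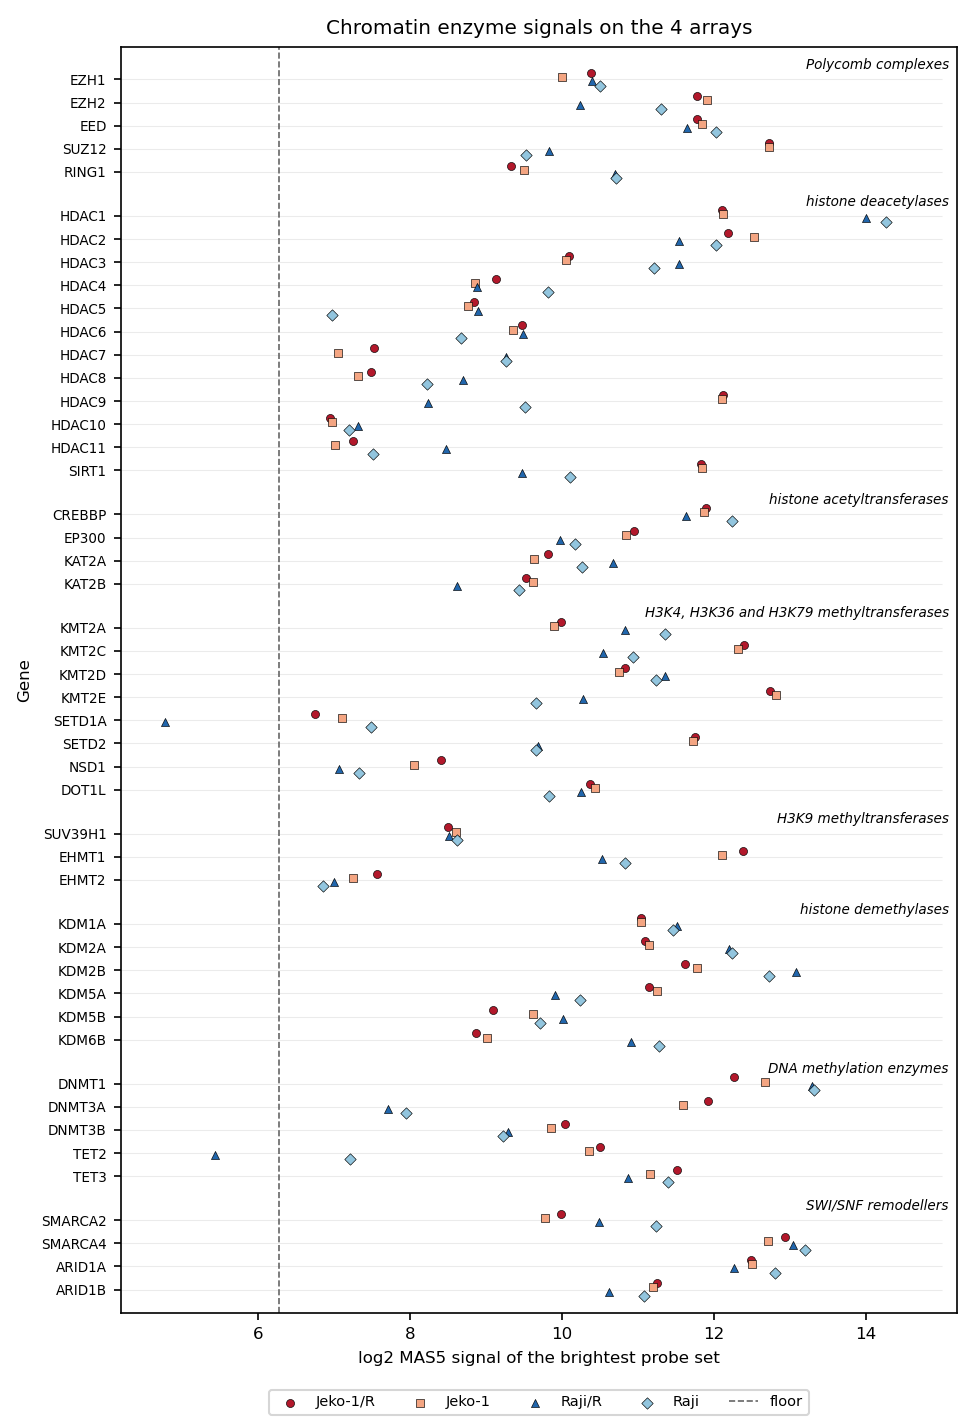
Log2 MAS5 signal of the brightest probe set (horizontal axis) for the 47 members by class (vertical axis), with 1 symbol for each of the 4 arrays and the floor as a dashed line. DNMT3A, SUZ12, HDAC9, KMT2E and TET2 show both Jeko-1 symbols far to the right of both Raji symbols, and only SETD1A and TET2 have a value under the floor, both in Raji/R.

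Among the 5 Polycomb genes, 2 were called higher in the Jeko-1 lines and 1 in the Raji lines, 60% beside 53.4% over all genes. SUZ12, the scaffold subunit of Polycomb repressive complex 2 (PRC2), had signals of 6785 in Jeko-1/R and 6777 in Jeko-1, against 914 in Raji/R and 737 in Raji. Both Jeko-1 arrays lay far above both Raji arrays, and the log2 difference was 3.05 ± 0.25 (standard error, limma adjusted p = 0.00011), an 8.26-fold gap. EZH2, the PRC2 methyltransferase, had signals of 3501 in Jeko-1/R and 3849.9 in Jeko-1, against 1212 in Raji/R and 2519 in Raji, with a line difference of 1.07 ± 0.30 (standard error, limma adjusted p = 0.0204). Raji/R had the lowest EZH2 signal of the 4 arrays, 2.08-fold lower than Raji (log2 ratio -1.05), while Jeko-1/R was close to Jeko-1 (-0.14). The Raji ratio was short of 2-fold after quantile normalization (-0.91) and with a lowess curve (-0.98). EZH2 was read by 1 probe set, so no other one bears on it. EZH1, the alternative methyltransferase of PRC2 that is typical of resting cells, had 1337 in Jeko-1/R, 1026 in Jeko-1, 1348 in Raji/R and 1446 in Raji, and the line difference of -0.25 did not pass the test (limma adjusted p = 0.444). EED, the subunit that binds methylated H3K27, had 3518 in Jeko-1/R, 3686 in Jeko-1, 3206 in Raji/R and 4170.3 in Raji, and its line difference of -0.02 did not pass either (limma adjusted p = 0.948). The other EED probe set, dimmer, gave 1.46, in the direction of SUZ12. RING1, a ubiquitin ligase of the other Polycomb complex, PRC1, was the member of this class that was higher in the Raji lines, at 646 in Jeko-1/R and 727 in Jeko-1, against 1662 in Raji/R and 1681 in Raji (log2 difference -1.29, standard error 0.25, limma adjusted p = 0.00394). EZH2 and DNMT1 are known to be high in dividing cells. The summed signal of 17 proliferation markers was 97171 in Raji/R and 112782 in Raji, with 13 of 17 lower in Raji/R and a median log2 ratio of -0.17, and 101574 in Jeko-1/R and 112108 in Jeko-1, with 15 of 17 lower and a median of -0.13. Their part in the EZH2 values was not tested.

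Of the 12 deacetylases, 2 were called higher in the Jeko-1 lines and 5 in the Raji lines, a share of 58.3% near the 53.4% over all genes. HDAC9, a class IIa deacetylase, had signals of 4440.5 in Jeko-1/R and 4403 in Jeko-1, against 303 in Raji/R and 731 in Raji by its brightest probe set, a line difference of 3.23 ± 0.34 (standard error, limma adjusted p = 0.000307). The Raji/R value was 2.41-fold lower than that of Raji (log2 ratio -1.27), and both Jeko-1 arrays were level (0.01). Other HDAC9 probe sets did not show the Raji difference: the next brightest was at the floor there, with 79.3 in Raji/R and 55.8 in Raji (log2 ratio 0.03), with 842 in Jeko-1/R and 835 in Jeko-1, and another gave 0.78. Between the lines, 2 of 4 other HDAC9 probe sets had the direction of the brightest, while dim ones gave -0.0075 and -0.48. SIRT1, an NAD-dependent deacetylase, was also higher in the Jeko-1 lines, with 3641 in Jeko-1/R and 3688 in Jeko-1, against 710.3 in Raji/R and 1100.0 in Raji (log2 difference 2.05, standard error 0.27, limma adjusted p = 0.000744). HDAC1, a class I enzyme of several co-repressor complexes, went the other way with 4424 in Jeko-1/R and 4463 in Jeko-1, against 16345 in Raji/R and 19763 in Raji (log2 difference -2.02, standard error 0.25, limma adjusted p = 0.000558, 4.05-fold higher in the Raji lines). HDAC3, the deacetylase of the NCOR complexes, had 1091 in Jeko-1/R and 1062 in Jeko-1, against 2991 in Raji/R and 2362 in Raji (log2 difference -1.30, standard error 0.25, limma adjusted p = 0.00404), and class IIa HDAC7 had 184 in Jeko-1/R and 133 in Jeko-1, against 614 in Raji/R and 616 in Raji (log2 difference -1.98, standard error 0.26, limma adjusted p = 0.000745). For each of these 3 genes the lower Raji array stood above the higher Jeko-1 array. HDAC11, the sole class IV enzyme, was called higher in the Raji lines as well, with 153 in Jeko-1/R and 129 in Jeko-1, against 357 in Raji/R and 183 in Raji (-0.86), a call that held in 3 of 7 other settings. HDAC8, a class I enzyme, had 179 in Jeko-1/R and 159.6 in Jeko-1, against 417 in Raji/R and 298 in Raji (-1.06), but a dimmer HDAC8 probe set gave 1.06, the opposite direction, so HDAC8 has no settled direction here. HDAC2, the close paralog of HDAC1, had 4676 in Jeko-1/R, 5892 in Jeko-1, 2984 in Raji/R and 4190.4 in Raji, and its line difference of 0.57 did not pass (limma adjusted p = 0.0914).

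HDAC5, a class IIa deacetylase that shuttles between nucleus and cytoplasm, was the 1 member 2-fold higher in Raji/R by its brightest probe set. Its signals were 476 in Raji/R and 126 in Raji, and 460.0 in Jeko-1/R and 434 in Jeko-1. Parental Raji stood alone at the low end, and Raji/R was at the level of both Jeko-1 arrays. The Raji pair differed 3.77-fold (log2 ratio 1.92) and the Jeko-1 pair by 0.08 on the log2 scale. The other HDAC5 probe set was near the floor, with 46.2 in Raji/R and 106 in Raji, a log2 ratio of -0.45 that goes the other way. Parental Raji was dim in HDAC5, and the log2 ratio fell short of 2-fold when its probe sets were averaged (0.36) or the floor was set at the 75th percentile (0.37). HDAC11 (0.96) and HDAC6 (0.81), a mainly cytoplasmic deacetylase that acts on tubulin, were higher in Raji/R by less than 2-fold by their brightest probe sets. The other measured probe set went the other way, at -0.67 for HDAC11 and -0.22 for HDAC6. HDAC4, another class IIa gene, was lower (-0.94), with 471 in Raji/R and 905 in Raji. HDAC4 shows how far probe sets can differ: the second one gave -0.72 and the dimmest 2.19. HDAC10, a polyamine deacetylase, stayed between 123 and 159 on all 4 arrays by its brightest probe set. Its other probe set was at least 2-fold higher in Raji/R (1.19, with 177 in Raji/R and 33.4, under the floor, in Raji). In Jeko-1/R the log2 ratios of all 12 genes lay between -0.33 (HDAC2) and 0.48 (HDAC7).

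CREBBP and EP300 are paralogous co-activators that acetylate H3K27 at enhancers. CREBBP had 3815 in Jeko-1/R, 3748 in Jeko-1, 3170.2 in Raji/R and 4839 in Raji, with no line difference that passed (-0.05, limma adjusted p = 0.889). EP300 had 1984 in Jeko-1/R and 1844 in Jeko-1, against 1011 in Raji/R and 1158 in Raji, and was called higher in the Jeko-1 lines (log2 difference 0.82, standard error 0.25, limma adjusted p = 0.0281), although its other probe set, with 995 in Jeko-1/R, 875 in Jeko-1, 1001 in Raji/R and 1738 in Raji, gave -0.50, the other direction. KAT2A, the catalytic subunit of SAGA and ATAC complexes, had 906 in Jeko-1/R and 791 in Jeko-1, against 1628 in Raji/R and 1234 in Raji and was called higher in the Raji lines (log2 difference -0.74, standard error 0.25, limma adjusted p = 0.0387), while its paralog KAT2B was not called (0.54, limma adjusted p = 0.146). In Raji/R, CREBBP (-0.61), EP300 (-0.20) and KAT2B (-0.81) were lower and KAT2A (0.40) higher than in Raji, all by less than 2-fold. The second CREBBP probe set was 2-fold or more lower (-1.64, with 1 value under the floor) and the 2 dimmest gave 0.62 and 0.56.

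Of the 8 methyltransferases of H3K4, H3K36 and H3K79, 4 were called higher in the Jeko-1 lines and 1 in the Raji lines, 62.5% beside 53.4% over all genes. KMT2E, a KMT2 family member without clear methyltransferase activity, had 6814 in Jeko-1/R and 7246 in Jeko-1, against 1237 in Raji/R and 809 in Raji (log2 difference 2.81, standard error 0.28, limma adjusted p = 0.000225, 7.03-fold), and both other probe sets had the same direction. SETD2, which trimethylates H3K36 over transcribed genes, had 3464 in Jeko-1/R and 3376 in Jeko-1, against 825 in Raji/R and 807 in Raji (log2 difference 2.07, standard error 0.24, limma adjusted p = 0.000458). KMT2C, which methylates H3K4 at enhancers, had 5374 in Jeko-1/R and 5083 in Jeko-1, against 1494 in Raji/R and 1964 in Raji (log2 difference 1.61, standard error 0.26, limma adjusted p = 0.00186). For each of these 3 genes the gap between the lines was wider than that within either line. NSD1, an H3K36 methyltransferase, had 341 in Jeko-1/R and 267 in Jeko-1, against 134 in Raji/R and 161 in Raji and was called higher in the Jeko-1 lines (1.03), but only 1 of its 3 other probe sets had that direction. KMT2A, the mixed-lineage leukaemia gene product that methylates H3K4 at promoters, was the 1 called higher in the Raji lines, with 1016 in Jeko-1/R and 951 in Jeko-1, against 1823 in Raji/R and 2614 in Raji (log2 difference -1.15, standard error 0.27, limma adjusted p = 0.00979), and 5 of 7 other probe sets had that direction. KMT2D, the paralog of KMT2C, had 1822 in Jeko-1/R, 1727 in Jeko-1, 2631 in Raji/R and 2422 in Raji, with a line difference of -0.51 that did not pass (limma adjusted p = 0.122). DOT1L, the H3K79 methyltransferase, had 1319 in Jeko-1/R, 1388 in Jeko-1, 1223 in Raji/R and 912 in Raji and was not called (0.36). SETD1A, an H3K4 methyltransferase, was dim on every array, with 27.5 in Raji/R, under the floor, and 179 in Raji, so Raji/R was at least 2.31-fold lower, and 108 in Jeko-1/R and 138 in Jeko-1 (-0.35). It is read by 1 probe set. By their brightest probe sets, KMT2E (0.61) and DOT1L (0.42) were higher in Raji/R, and KMT2A (-0.52) and KMT2C (-0.39) lower, all by less than 2-fold. Of the other probe sets measured in that pair, 2 of 2 for KMT2E and 1 of 1 for DOT1L had the direction of the brightest. For KMT2C 2 of 4 did and for KMT2A 1 of 6, where 1 KMT2A probe set gave 1.09.

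The H3K9 methyltransferases write the mark of silent chromatin. EHMT1, known as GLP, had 5349 in Jeko-1/R and 4394 in Jeko-1, against 1481 in Raji/R and 1818 in Raji and was called higher in the Jeko-1 lines (log2 difference 1.56, standard error 0.27, limma adjusted p = 0.00241). EHMT2 (G9a), its partner in a heterodimer, had 189 in Jeko-1/R, 152 in Jeko-1, 129 in Raji/R and 115 in Raji and was not called (0.48, limma adjusted p = 0.146). Its second probe set was at least 2-fold lower in Raji/R (-1.21, with 16.9 in Raji/R and 179.7 in Raji), where the first gave 0.16. SUV39H1, which trimethylates H3K9 at pericentric heterochromatin, was nearly level over the 4 arrays, at 362 in Jeko-1/R, 389 in Jeko-1, 367 in Raji/R and 392 in Raji.

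Of the 6 demethylases, 1 was called higher in the Jeko-1 lines and 3 in the Raji lines, 66.7% beside 53.4% over all genes. KDM6B, which removes the Polycomb mark from H3K27, had 468 in Jeko-1/R and 518 in Jeko-1, against 1929 in Raji/R and 2489.7 in Raji (log2 difference -2.15, standard error 0.25, limma adjusted p = 0.00041, 4.45-fold higher in the Raji lines), and all 4 other probe sets had the same direction. KDM2B, an H3K36 demethylase that recruits a PRC1 complex to CpG islands, had 3156 in Jeko-1/R and 3504 in Jeko-1, against 8703 in Raji/R and 6783 in Raji (log2 difference -1.21, standard error 0.26, limma adjusted p = 0.00696), and its paralog KDM2A had 2177 in Jeko-1/R and 2264 in Jeko-1, against 4722 in Raji/R and 4844 in Raji (log2 difference -1.11, standard error 0.24, limma adjusted p = 0.00739). KDM5A, an H3K4 demethylase, was higher in the Jeko-1 lines with 2273 in Jeko-1/R and 2447 in Jeko-1, against 964 in Raji/R and 1212 in Raji (log2 difference 1.13, standard error 0.25, limma adjusted p = 0.00734), again with all 4 other probe sets in the same direction. Its paralog KDM5B had 548 in Jeko-1/R, 786 in Jeko-1, 1038 in Raji/R and 838 in Raji and was not called between lines (-0.51). It had the lowest ratio of any member in Jeko-1/R, -0.52, and 2 other measured probe sets gave -0.64 and -0.28. KDM1A (LSD1), the flavin-dependent H3K4 demethylase, had 2106 in Jeko-1/R, 2111 in Jeko-1, 2931 in Raji/R and 2830.4 in Raji, close together within each pair (-0.0034 for Jeko-1/R, 0.05 for Raji/R). All 6 demethylases were lower in Jeko-1/R than in Jeko-1, with ratios between -0.52 and -0.0034, where 49.8% of all measured genes were lower, and 3 of 6 were lower in Raji/R. Other probe sets do not bear this out for all of them: in Jeko-1/R 3 of 4 for KDM5A gave 0.21, 0.05 and 0.07, the 1 measured for KDM6B gave 0.25 and 1 of 2 for KDM2A gave 0.14. Of 17 further demethylases on another list, 8 were lower in Jeko-1/R.

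The DNA methylation enzymes held the 2 widest gaps between the lines. DNMT3A, a de novo DNA methyltransferase, had 3878 in Jeko-1/R and 3096 in Jeko-1, against 209 in Raji/R and 246 in Raji, a difference of 3.93 ± 0.27 (standard error, limma adjusted p = 6.14e-05) or 15.3-fold, and both other probe sets had the same direction. TET2, which oxidises 5-methylcytosine, had 1454 in Jeko-1/R and 1313 in Jeko-1, against 43.3 in Raji/R and 149 in Raji. With the Raji/R value raised to the floor, the difference was 3.69 ± 0.32 (standard error, limma adjusted p = 0.000134), at least 12.9-fold. In TET2, Raji/R was at least 1.92-fold lower than Raji. That is a bound set by the floor, and TET2 passed 2-fold with no floor (log2 ratio -1.78), after quantile normalization (-1.24) and with a lowess curve (-1.50). DNMT1, which copies methylation after replication, had 4936 in Jeko-1/R and 6522 in Jeko-1, against 10007 in Raji/R and 10257 in Raji and was called higher in the Raji lines (log2 difference -0.84, standard error 0.25, limma adjusted p = 0.0276). Its log2 ratio was -0.40 in Jeko-1/R, with -0.04 for Raji/R. DNMT3B, the second de novo enzyme, had 1052 in Jeko-1/R and 927 in Jeko-1, against 624 in Raji/R and 601 in Raji and passed the test narrowly (log2 difference 0.69, standard error 0.24, limma adjusted p = 0.0492). That call held in 2 of 7 other settings. TET3 had 2919.8 in Jeko-1/R, 2298 in Jeko-1, 1865 in Raji/R and 2708 in Raji and was not called (0.20). In Jeko-1/R, DNMT3A (0.32), DNMT3B (0.18), TET2 (0.15) and TET3 (0.35) were above Jeko-1 by their brightest probe sets, but other probe sets gave -0.61 and -0.69 for TET2 and -0.22 for TET3. In Raji/R DNMT3A (-0.24) and TET3 (-0.54) were below Raji by their brightest probe sets, each by less than 2-fold. Other probe sets in that pair gave 0.16 and -0.74 for DNMT3A, and 1.12 and 0.07 for TET3.

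The SWI/SNF genes encode an ATP-driven complex that slides nucleosomes. Its alternative ATPases are SMARCA4 (BRG1) and SMARCA2 (BRM). SMARCA2 had 1011 in Jeko-1/R and 878 in Jeko-1, against 1432 in Raji/R and 2427 in Raji, and was called higher in the Raji lines (log2 difference -0.99, standard error 0.30, limma adjusted p = 0.0301), which held in 3 of 7 other settings. SMARCA4 had 7810.2 in Jeko-1/R, 6708 in Jeko-1, 8395 in Raji/R and 9385 in Raji, and ARID1A, a DNA-binding subunit, had 5762 in Jeko-1/R, 5787 in Jeko-1, 4920.0 in Raji/R and 7175 in Raji; neither was called between lines (-0.29 and -0.04). ARID1B, the paralog of ARID1A, was not called either (0.37). All 4 were lower in Raji/R than in Raji, at -0.76 for SMARCA2, -0.16 for SMARCA4, -0.54 for ARID1A and -0.45 for ARID1B, where 43.9% of all measured genes were lower. Of all probe sets with a mean signal of 300 or more in the Raji pair, 6358 of 12270 were lower. Of 28 further remodellers on another list, 15 were lower in Raji/R. The probe sets do not settle the direction for SMARCA4, since all 7 others measured in the Raji pair gave a ratio above 0. For SMARCA2 2 of 3, for ARID1A 2 of 3 and for ARID1B 4 of 5 others had the direction of the brightest. The others of ARID1A gave -0.62, -0.00044 and 0.83, so the second of these was level in the pair.

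**Figure D2:**
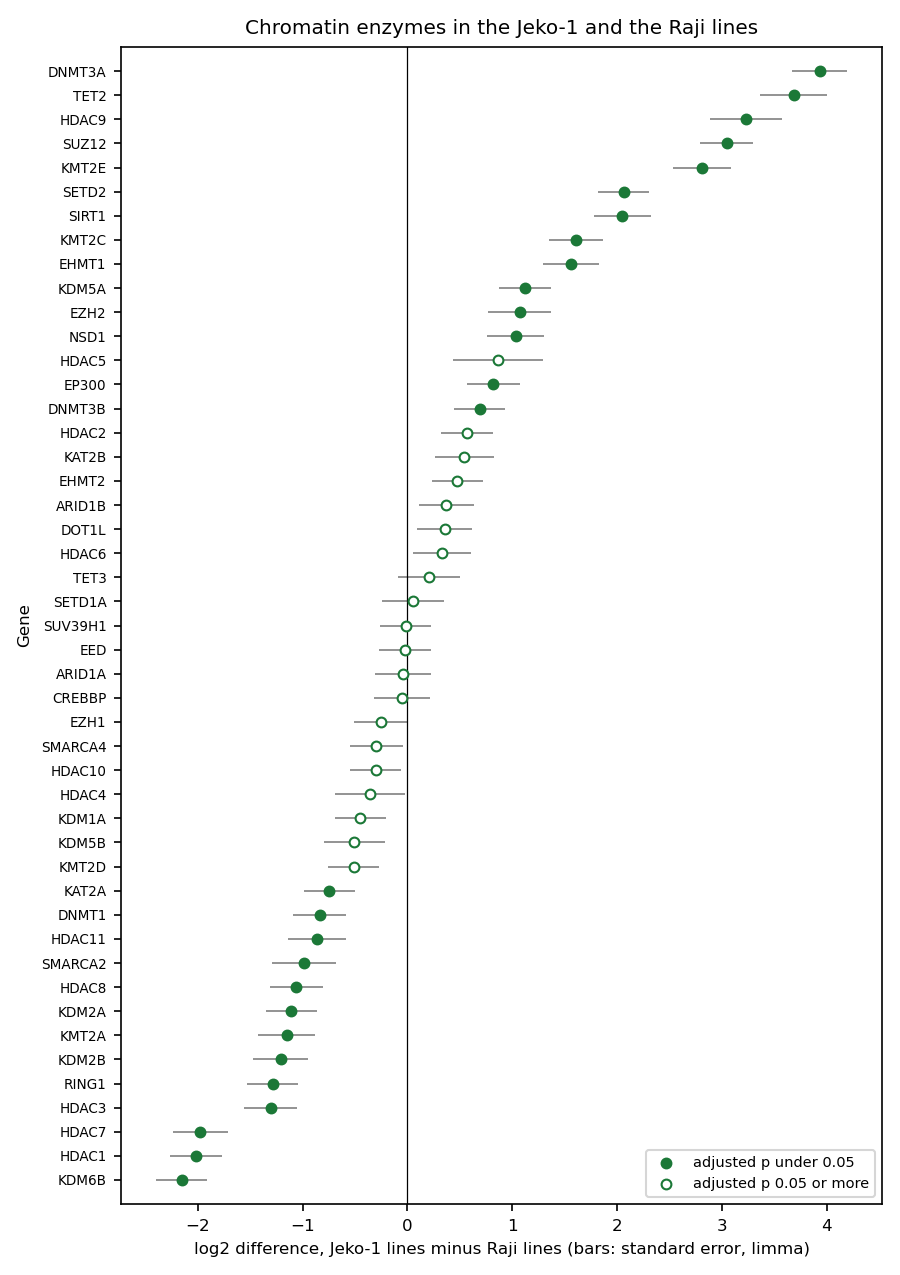
Difference in log2 signal, Jeko-1 lines minus Raji lines (horizontal axis), for each of the 47 members (vertical axis, sorted), with limma's standard error as bars and filled points where the adjusted p was under 0.05. DNMT3A stands at 3.93 at the top and KDM6B at -2.15 at the bottom, and 20 members are open points, all but HDAC5 (0.87) between -0.51 and 0.57.

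Of the 27 members called between lines, 10 were called in the same direction in all 7 other settings in which limma called any gene: DNMT3A, TET2, HDAC9, SUZ12, KMT2E, KMT2C and KDM5A, higher in the Jeko-1 lines, and HDAC1, KDM6B and KDM2A, higher in the Raji lines. Of 49 other probe sets of the 27 called members, 39 had the direction of the brightest, and 1, of HDAC8, was 2-fold the other way. Without the Raji/R array, a setting chosen after the data were seen, with the line as the only term, 18 members were called, 14 of them among the 27 and in the same direction, where 44.8% of all genes were called. HDAC3, SETD2 and SIRT1 kept the call in 6 of the 7 settings. All their probe sets can match several transcripts, so they had no value where such probe sets were left out. In the count over all 7 settings, a member without a value in a setting was taken as not called. By that count DNMT3B kept the call in 2 settings and EP300, HDAC11, NSD1 and SMARCA2 in 3. DNMT1, EZH2, HDAC7 and HDAC8 kept it in 4.

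**Figure D3:**
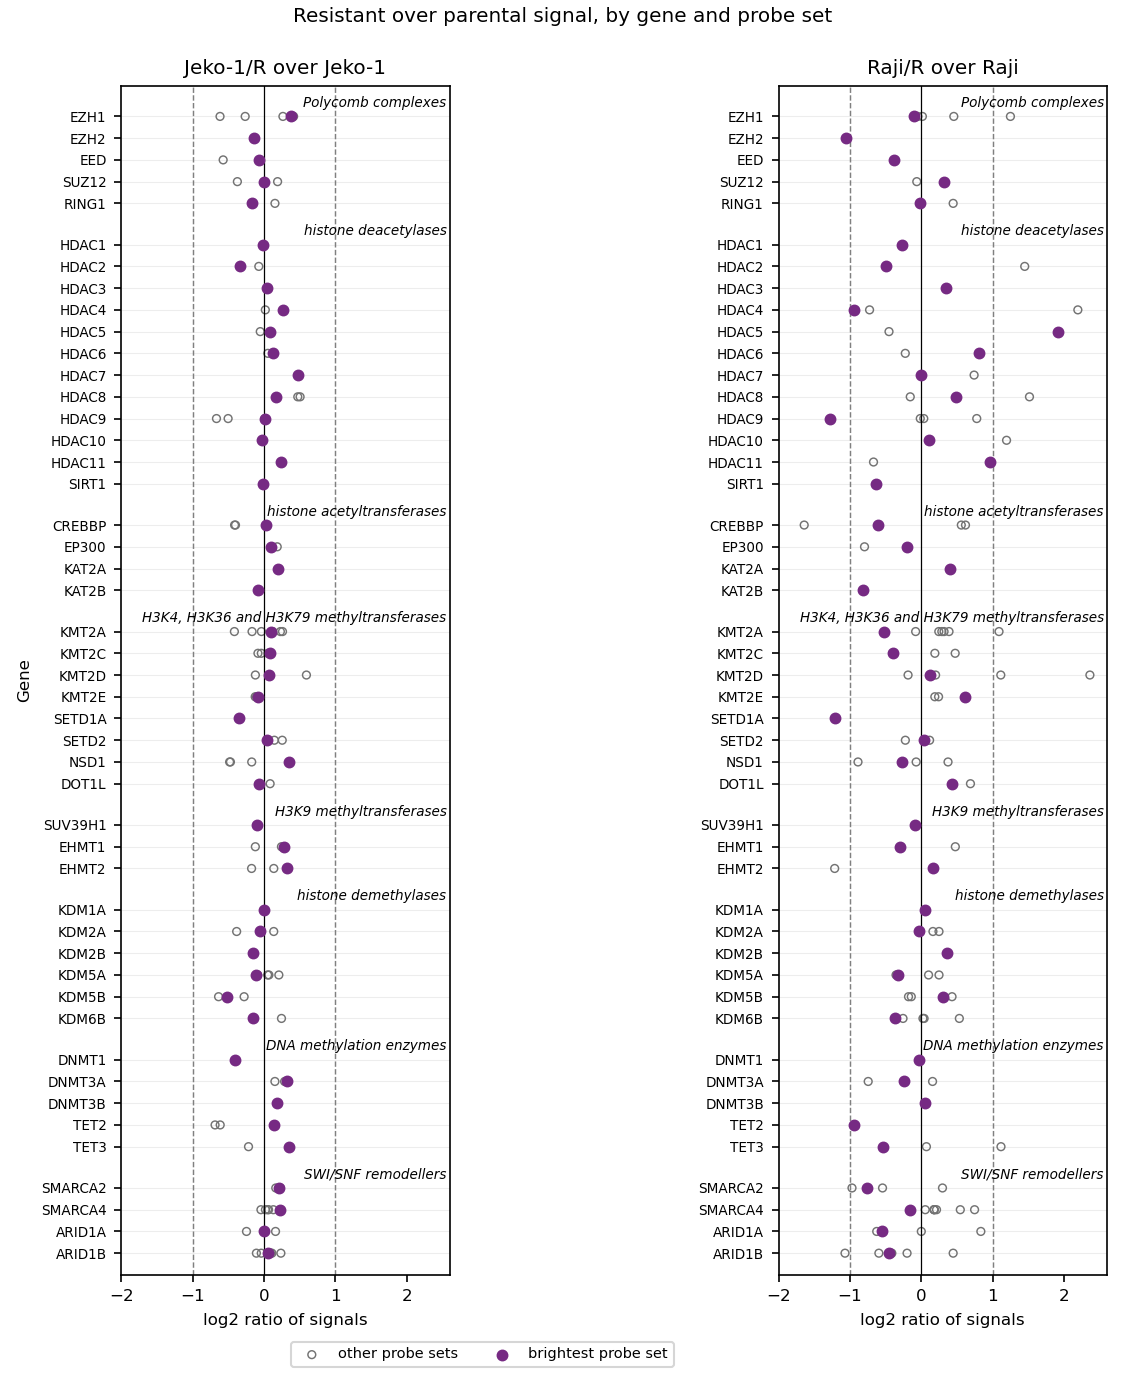
Log2 ratio of resistant over parental signal (horizontal axes) for each member (vertical axes), with Jeko-1/R over Jeko-1 on the left and Raji/R over Raji on the right. Filled points are brightest probe sets, open circles other probe sets, and dashed lines mark 2-fold. No point passes 2-fold in the Jeko-1 pair, and among filled points for Raji/R, HDAC5 passes it upward and EZH2, HDAC9 and SETD1A downward.

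Over both pairs, the resistance difference was not called for any member. In limma's paired fit, with the line as the pair, 0 of 47 members and 0 of 15575 genes had an adjusted p under 0.05 (0% of genes). At an unadjusted p under 0.05 there was 1 member, SETD1A, and 2.08% of all genes. SETD1A had a mean log2 difference of -0.78 ± 0.29 (standard error, limma adjusted p = 0.974), lower in both sublines, with most of it in the Raji pair. Its Raji/R signal was raised to the floor, which enters both the difference and its standard error. With no floor and no filter, 0 members had an unadjusted p under 0.05 in this fit. The fit has 1 residual degree of freedom. A difference between the pairs themselves, such as that of HDAC9, could not be tested, since 4 arrays leave nothing to estimate its error. Of the 47 members, 11 were higher in both sublines, 14 lower in both, 16 higher in Jeko-1/R and lower in Raji/R, and 6 the reverse. In 34 of 47 the Raji ratio was the larger in size, and 16 members had a log2 ratio beyond 0.5 in Raji/R against 1 in Jeko-1/R. The Raji pair was the wider over all measured genes too, with an SD of log2 ratios of 0.59, beside 0.30 for the Jeko-1 pair. The members' SDs were 0.59 and 0.21, so the wider Raji ratios are not particular to these enzymes. The sign patterns were not counted over all genes.

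The choice of probe set decided much of the picture in the Raji pair. Of the members, 12 were read by 1 probe set and 35 by several. Among the other probe sets measured, 31 of 81 for Raji/R over Raji had the sign of the brightest, and 39 of 72 for Jeko-1/R over Jeko-1. In the Raji pair the brightest probe sets had a median log2 ratio of -0.16, with 17 of 47 above 0, and the others a median of 0.16, with 50 of 81 above 0. For Jeko-1/R both medians lay near 0, at 0.04 and 0.02. The others were dimmer. Among member probe sets with a mean signal under 300 in the Raji pair, 10 of 59 were 2-fold higher and 4 were 2-fold lower in Raji/R, and of all 14604 such probe sets on the array 1787 were higher and 592 lower. Over all probe sets with a single symbol, 10.4% were 2-fold apart in the Raji pair (7.43% higher in Raji/R), and 0.986% between Jeko-1/R and Jeko-1. At or above 300, 0 of 69 member probe sets were 2-fold higher and 2, of EZH2 and HDAC9, were lower, and of all 12270 such probe sets 211 were higher and 197 lower. Dim probe sets that were 2-fold higher in Raji/R included those of KMT2D (2.36), HDAC4 (2.19), HDAC8 (1.51) and HDAC2 (1.45), while the brightest probe sets of these genes gave 0.12, -0.94, 0.49 and -0.49.

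**Figure D4:**
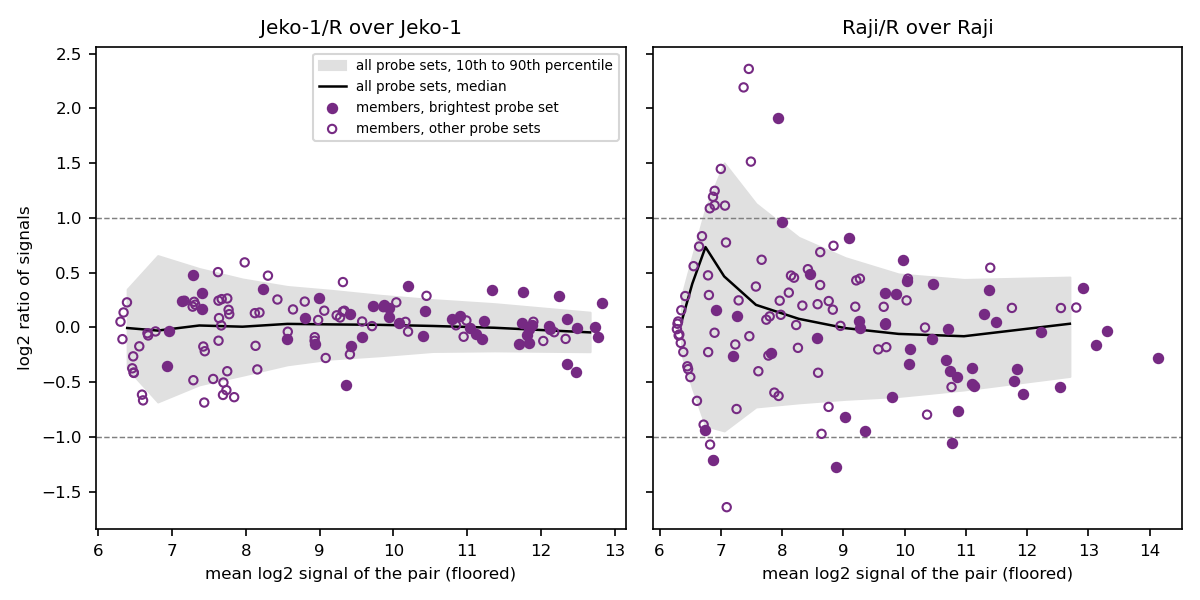
Log2 ratio of resistant over parental signal (vertical axis) against the mean log2 signal of the pair (horizontal axis) for member probe sets, with the Jeko-1 pair on the left, the Raji pair on the right, the median (line) and the 10th to 90th percentiles (grey) of all probe sets with a single symbol. In the Raji pair the median of all probe sets is up to 0.73 above 0 at low signals, and the members' dim probe sets sit in the same region.

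Other chromatin genes were counted in the same way. In 7 lists of further Polycomb, deacetylase, acetyltransferase, methyltransferase, demethylase, DNA methylation and remodelling genes, 146 of 156 listed had a value. Of 145 measured in each pair, 1 was 2-fold lower in Jeko-1/R, PCGF2, a PRC1 subunit, with 81.5 in Jeko-1/R and 221 in Jeko-1 (-1.44), against 1167 in Raji/R and 929 in Raji. Over all genes 0.595% were lower and 0.38% higher in Jeko-1/R. Other PCGF2 probe sets measured in that pair gave -0.13 and -0.39. In Raji/R 1 was 2-fold lower, IDH1, the cytosolic enzyme that makes the 2-oxoglutarate which TET enzymes and most histone demethylases use, with 3121 in Raji/R and 6776 in Raji (-1.12), and 5175 in Jeko-1/R and 5159.9 in Jeko-1. Another IDH1 probe set gave -0.71. Over all genes 2.64% were lower and 7.01% higher in Raji/R. None of the 145 was 2-fold higher in either subline. Their median log2 ratio was 0.0056 in Jeko-1/R, with -0.10 for Raji/R, and 90 of 146 were called between lines, 47 higher in the Jeko-1 lines and 43 in the Raji lines. The further DNA methylation factors had 7 of 11 called higher in the Jeko-1 lines and 1 in the Raji lines, and the deacetylase complex subunits and sirtuins had 6 of 24 higher in the Jeko-1 lines and 12 in the Raji lines, where 23.3% and 30.1% of all genes were called in those directions.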

How the data were processed

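The authors deposited log2 values for 54613 probe sets on 4 arrays, and the submitters' processing notes name MAS5 for them. No header states the base of the logarithm; powers of 2 give array means near 500, as MAS5 scaling leaves them. Platform annotation gave 41091 probe sets 1 symbol, 1801 several and 11721 none. Of those with 1 symbol 41037 matched a RefSeq gene.

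Values under log2 6.28 (signal 77.5) were raised to it, and a gene was tested in a pair where at least 1 array reached it. The line and resistance terms were fitted with limma 3.58.1 in R 4.3.3 over all 4 arrays, with Benjamini-Hochberg adjustment over 15575 genes, and checked on simulated data. Alternatives were another floor, none, a pseudocount of 64, quantile normalization, a lowess curve on mean signal, the mean of probe sets, no x_at or s_at probe sets, and no resistance term or line term. The number of arrays, 1 per group, limits the precision.

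The members and lists were chosen with earlier results of these data known. All members were named. Of 221 genes in 15 further lists, those 2-fold apart in a pair were named from the chromatin and proliferation lists, up to 3 per direction, and markers by role. UHRF1, TET1 and the genes of the closing observations beyond that were named after their values were seen.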

Additional observations from a re-analysis of the deposited data

Results flagged for a closer look

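HDAC9 moved in only 1 of the pairs by its brightest probe set: the log2 ratio was -1.27 for Raji/R over Raji and 0.01 for Jeko-1/R over Jeko-1, so the subline was lower in Raji and level in Jeko-1. The difference between the pairs was not tested, since 1 array per group leaves no error for it. The next brightest HDAC9 probe set gave 0.03 for Raji/R over Raji and 0.01 for Jeko-1/R over Jeko-1.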

How the results depend on the processing

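Over all genes 9.64% were 2-fold apart in Raji/R. The share was 1.78% with a floor at the 75th percentile (signal 367), 31.3% with no floor and 7.87% to 11.8% otherwise. The count of members 2-fold apart in Raji/R was 4, and 4 to 5 under the other settings except with that higher floor, which left 1 of 40, EZH2. Which members these were changed: EZH2 was not among them after quantile normalization or a lowess curve on mean signal, where TET2 took its place. HDAC5 dropped out with both means of probe sets (log2 ratio 0.36). With the mean of a gene's probe sets only EZH2 and SETD1A remained, and EED, HDAC7 and HDAC10 came in. With the mean of probe sets above the floor EED and KMT2D came in beside EZH2 and SETD1A. Without x_at and s_at probe sets EHMT2 came in, and EZH2 had no value. The members' median in Raji/R was -0.16, but 0.11 with the mean of probe sets, -0.0043 with the mean of probe sets above the floor and -0.26 without x_at and s_at probe sets. In Jeko-1/R it was 0.04, and -0.0060 with the mean of probe sets. No member was 2-fold apart in Jeko-1/R in any setting, where 0.331% to 19.8% of all measured genes were. Line calls numbered 27, and 0 with no floor and no filter, where limma called 0 of 19775 genes and 17 members had an unadjusted p under 0.05; without replicate 1 of Raji/R there were 18, and without x_at and s_at probe sets 18 of 32 members tested. Without x_at and s_at probe sets 49.4% of all genes were called between lines. The paired resistance fit called 0 members, and the fit with no replicate block also called 0, with 0 members and 4 genes at an unadjusted p under 0.05. The cause of these shifts was not tested. Leaving out any other array was not run, and that of Raji/R and the mean of probe sets above the floor were chosen after seeing the data. Signals under the floor give bounds only.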

Other observations

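Some relatives of the members were far apart between the lines or in the Raji pair, and they were picked after their values were seen. TET1, the paralog of TET2, had 881 in Jeko-1/R and 783 in Jeko-1, against 48.9 in Raji/R and 31.8 in Raji, under the floor on both Raji arrays. UHRF1, which brings DNMT1 to replicating DNA, had 2334 in Raji/R and 4564 in Raji (log2 ratio -0.97), and 7674 in Jeko-1/R and 9258 in Jeko-1 (-0.27), while DNMT1 itself was level in the Raji pair (-0.04). MKI67, the Ki-67 antigen of cycling cells, had 744 in Raji/R and 369 in Raji by its brightest probe set (log2 ratio 1.01), whereas its 3 other probe sets gave -0.12, 0.08 and 0.22.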
